A study of Mus musculus with 6 samples.

Results

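The proteasome genes described here are the 47 genes, of 25701 in the RNA-seq table, whose symbols run from Psma to Psmg followed by a number. By role, 18 belong to the 20S core, 20 to the 19S cap and 9 to the regulators and assembly factors of the core. The study asked what the zinc finger and homeobox protein Zhx1 does in cardiac differentiation, and polyA RNA was sequenced from cardiac progenitor (CP) cells derived from 46C, a mouse embryonic stem cell (ESC) line whose Sox1 gene carries a GFP reporter. There were 3 libraries of control 46C cells (46C-Ctrl) and 3 libraries labelled Zhx1-KO, from the same line after CRISPR/Cas9 cutting with a pair of guides against the Zhx1 gene. The sources used here do not give how many knockout clones were sequenced, and nothing in the labels ties the libraries to separate cultures, so p-values measure only how these libraries spread, which may be technical.

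The proteasome is the large protease that degrades proteins tagged with ubiquitin. Its 20S core is a barrel of stacked rings, with outer rings of alpha subunits that gate the entrance and inner rings of beta subunits, of which Psmb6, Psmb7 and Psmb5 carry the constitutive protease activities. The 19S cap binds ubiquitin chains, removes them, and unfolds the substrate with a ring of ATPases, while other caps such as PA28 and PA200 open the core in different settings. In cells exposed to interferon, and in immune cells, the catalytic subunits can be replaced by Psmb9, Psmb10 and Psmb8 to form the immunoproteasome.

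Each library held between 13769967 and 15940874 counted reads, recovered from the steps of the deposited values. 46C-Ctrl library 2 stood apart, with 2.77% of its values on mitochondrial genes against 1.72% to 1.87% in the other 5 libraries, and the counts of proteasome genes and of listed genes that passed the test were also made without it. Zhx1, the targeted gene, was at 460.3, 181 and 457 in 46C-Ctrl and 225, 325 and 308 in Zhx1-KO, and the groups overlapped, with a log2 fold change of -0.25 ± 0.35 (SE, n = 3 per group, adjusted p = 0.579). By exact permutation of the libraries (two-sided) p was 0.6, and 3 against 3 cannot go below 0.1. These values count the whole gene, and 46C-Ctrl library 2 was the lowest of all 6, so they do not settle the label and the group is called by its label throughout. Of 6 CP genes, the transcription factors Nkx2-5, Mef2c, Tbx5, Hand1 and Hand2 fell and Isl1 did not pass the test. Markers of other cell types also moved between the groups. In the libraries labelled Zhx1-KO, 7 of 8 endothelial and 6 of 8 neural markers rose, 7 of 8 endoderm markers and 5 of the 7 pluripotency markers tested fell. Of all genes tested, 25.6% rose and 26.4% fell. Against their lists, Nes, the most abundant neural marker, fell from a mean of 2804 to 1652 (log2 fold change -0.76). The pluripotency marker Sox2 rose from a mean of 589 to 1985 (log2 fold change 1.75). The summed endothelial markers ran from 1112 to 1203 in 46C-Ctrl and 4291 to 4575 in Zhx1-KO. Those of the neural list ran from 3452 to 4066 in 46C-Ctrl and 4379.7 to 4688 in Zhx1-KO, and Pax6 was at 0 in all 3 libraries of 46C-Ctrl. For the endoderm list the sums ran from 28529 to 31528 in 46C-Ctrl and 9672 to 10615 in Zhx1-KO. Most of the endoderm sum was Krt8, with means of 24023 in 46C-Ctrl and 7222 in Zhx1-KO. Foxa2, with means of 717 and 660, was the endoderm marker that did not pass. In bulk RNA, a different share of cells of a type and a different amount of RNA per cell cannot be told apart. The part of these markers in the proteasome values was not tested.

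In the Zhx1-KO libraries, 7 of the 8 proteasome genes of chromosome 11 and several chaperones rose, the PA28 genes Psme1 and Psme2 and part of the 19S base fell, and most other subunits did not pass the test. Of the 46 proteasome genes tested (mean normalised count of at least 10), 13 rose and 8 fell (limma, adjusted p under 0.05). Log2 fold changes throughout are Zhx1-KO minus 46C-Ctrl on the scale of log2(value + 1), which understates the change of genes with low values. Over all 15372 genes tested, 52.0% passed that threshold, 25.6% higher and 26.4% lower, against 45.7% of the proteasome genes. The share of proteasome genes that fell, 17.4%, was below that of all genes, and the share that rose, 28.3%, was close to it. The 3 libraries of each group did not overlap for 23 of the 46, or 50%, compared with 60.8% of all genes tested. By size, Psmb9, Psmb6 and Psmb3 differed by 1.5-fold or more, which is 6.52% of the proteasome genes against 36.9% of all genes tested. Most proteasome genes had a mean of at least 1000, and among all genes at that level the share was smaller. It was 30.5% on chromosome 11 and 17.3% on other chromosomes. The median log2 fold change of the proteasome genes was 0.035 against 0.0088 for all genes tested. The split between rises and falls depended on the scaling. It was 20 against 4 after quantile normalization and 15 against 5 when libraries were scaled on genes outside chromosome 11. Without 46C-Ctrl library 2 it was 15 against 8, and the 2 genes gained were Psmb1 and Psma4.

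**Figure D1:**
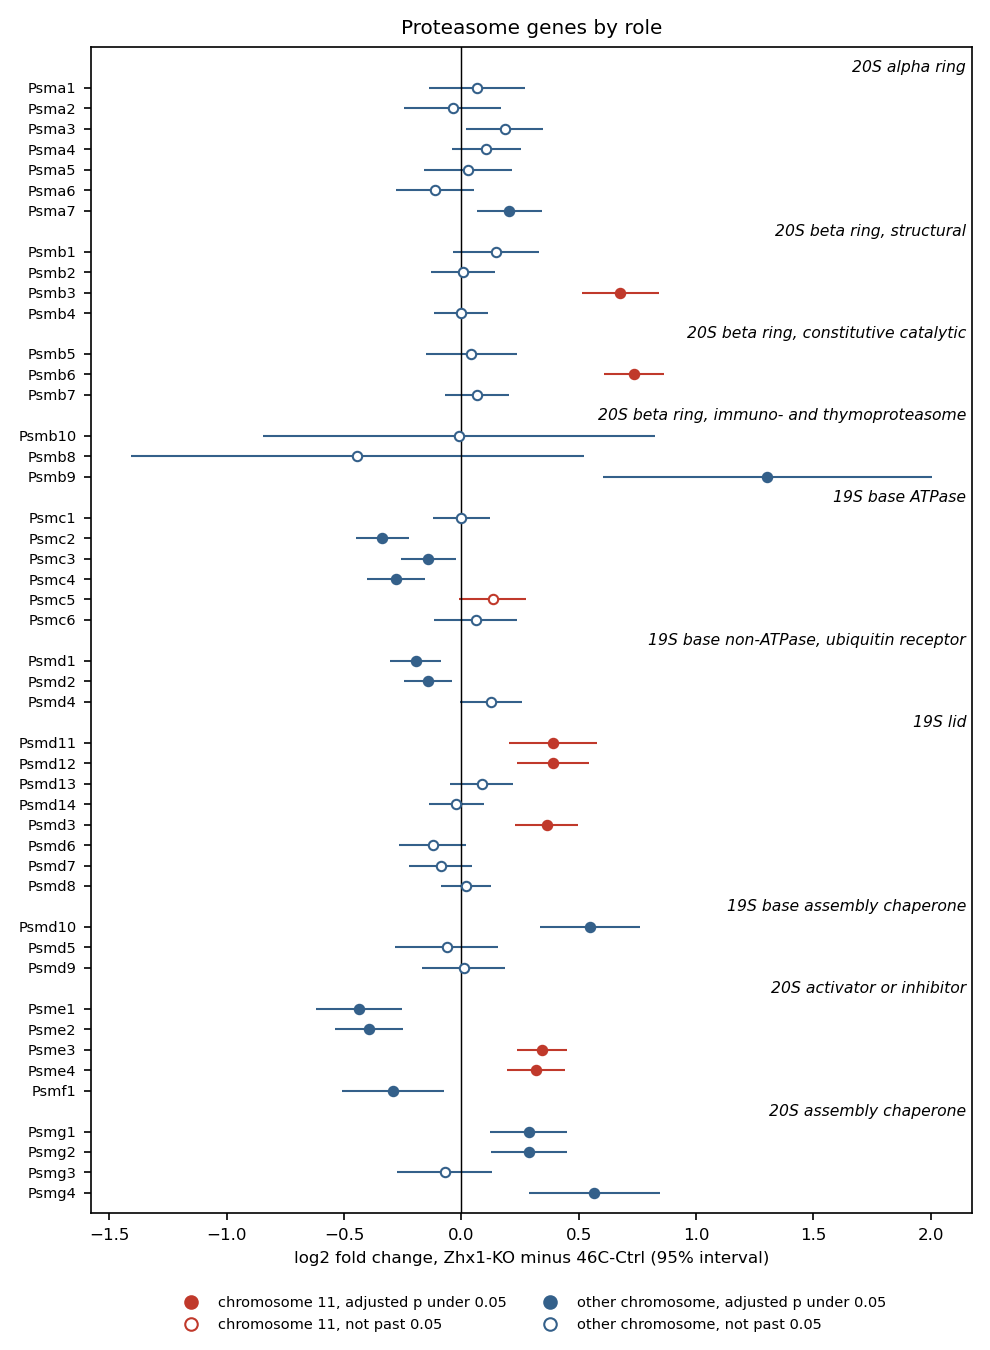
Log2 fold change (x axis) of each of the 46 tested proteasome genes, in order of role, with the 95% interval of the limma fit over 3 libraries per group. Filled points passed an adjusted p of 0.05 and red points lie on chromosome 11, where 7 of 8 were filled and to the right of 0.

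Promoter sequence from RefSeq, as 250 bases before and 50 after the start (GRCm38.p6), was matched by symbol for 40 of the 47 genes. Those without an entry were Psmb1, Psmb2, Psmb7, Psmc3, Psmd3, Psmd7 and Psmg2. Stretches upstream of the start, without annotated exons, are shown for the 2 largest rises of chromosome 11, for Psmd12, which shares a motif with Psmb6, for the largest rise of the 19S cap (Psmd10) and for Psme2 from the pair that fell together. Capitals mark matches to the antioxidant response element core TGACNNNGC or the CCAAT box on either strand.
Psmb6 (chr11:70525107-70525356, + strand): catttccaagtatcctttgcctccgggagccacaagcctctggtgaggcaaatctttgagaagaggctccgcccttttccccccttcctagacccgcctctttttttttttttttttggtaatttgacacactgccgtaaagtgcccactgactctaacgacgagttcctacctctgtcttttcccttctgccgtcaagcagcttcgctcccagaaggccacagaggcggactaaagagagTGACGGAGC
Psmb3 (chr11:97703184-97703398, + strand): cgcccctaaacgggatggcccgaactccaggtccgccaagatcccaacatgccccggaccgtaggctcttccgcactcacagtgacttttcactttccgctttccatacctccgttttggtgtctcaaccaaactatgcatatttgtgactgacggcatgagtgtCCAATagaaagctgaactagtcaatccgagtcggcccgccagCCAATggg
Psmd12 (chr11:107479278-107479483, + strand): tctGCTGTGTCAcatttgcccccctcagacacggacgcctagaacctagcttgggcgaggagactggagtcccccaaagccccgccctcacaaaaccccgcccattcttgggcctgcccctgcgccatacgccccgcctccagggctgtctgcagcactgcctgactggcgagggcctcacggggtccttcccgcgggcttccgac
Psmd10 (chrX:140956729-140956906, - strand): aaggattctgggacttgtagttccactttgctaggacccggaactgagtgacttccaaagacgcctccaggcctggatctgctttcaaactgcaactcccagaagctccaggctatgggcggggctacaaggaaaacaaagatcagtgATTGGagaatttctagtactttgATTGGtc
Psme2 (chr14:55591114-55591351, - strand): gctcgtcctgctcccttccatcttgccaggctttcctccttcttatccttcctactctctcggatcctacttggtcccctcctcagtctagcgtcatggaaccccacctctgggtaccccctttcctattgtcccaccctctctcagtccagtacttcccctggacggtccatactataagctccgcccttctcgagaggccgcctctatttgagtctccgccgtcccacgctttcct
Psmb6 holds 1 TGACNNNGC match that ends at the start, and Psmd12 holds 1 at the far end of its window. Psmb3 and Psmd10 hold 2 CCAAT boxes each, and the Psme2 stretch holds none of the motifs searched.

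The motif shares were set beside those of all promoters. TGACNNNGC, the core bound by the Nfe2l1 and Nfe2l2 factors, was found in 6 of 40 promoters (15%) and in 14% of 27025 genes' promoters. CCAAT, bound by the NF-Y trimer, was found in 14 of 40 (35%) against 41.1%, GGAAGTG, an ETS site, in 8 of 40 (20%) against 12.5%, and TGACGTCA, the cyclic AMP response element, in 0 of 40 against 2.03%. Both strands were searched, and TGACNNNGC and TGACGTCA share their first letters but cannot match at the same place. On chromosome 11, 3 of 7 promoters, those of Psmb6, Psmd12 and Psme4, held TGACNNNGC, and none of the 12 promoters of called genes on other chromosomes did. Of the 21 promoters of genes that did not pass the test, 3 held it (14.3%). These were Psmc6, Psmd9 and Psmb5, all on other chromosomes. These are letter matches in a short window and were not tested.

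In the alpha ring, 1 of 7 genes, Psma7, passed the test, and the other 6 had log2 fold changes from -0.11 for Psma6 to 0.19 for Psma3. Psma7 was at 2919, 3038 and 3246 in 46C-Ctrl and 3339.9, 3583 and 3674 in Zhx1-KO. All 3 libraries labelled Zhx1-KO were above the controls, with a log2 fold change of 0.20 ± 0.059 (SE, n = 3 per group, adjusted p = 0.0219), although its adjusted p ranged up to 0.0752 when single libraries were left out or the variance trend was dropped. Psma3 was also higher without overlap, at 872, 919 and 1013 in 46C-Ctrl and 1079, 1023 and 1082 in Zhx1-KO, with a log2 fold change of 0.19 ± 0.071 (SE, n = 3 per group, adjusted p = 0.0589) and a 95% interval of 0.021 to 0.35. Its reads are uncertain, since the processed pseudogene Gm13835 matches Psma3 over 665 bases at 100% identity and was itself at 233, 486 and 426 in 46C-Ctrl and 633, 391 and 459 in Zhx1-KO. The sum of both ran from 1105 to 1439 in 46C-Ctrl and from 1415 to 1712 in Zhx1-KO, so the groups overlapped by their sum. Intervals for Psma1, Psma2, Psma4, Psma5 and Psma6 all included 0, the widest being -0.24 to 0.17 for Psma2 and -0.14 to 0.27 for Psma1.

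Of the 7 constitutive beta ring genes, the 2 that rose were those on chromosome 11. Psmb6, the constitutive subunit that cuts after acidic residues, lies at chr11:70525367-70527858 (GRCm38) and was at 2699, 2843 and 2935 in 46C-Ctrl and 4479.8, 4944 and 4686 in Zhx1-KO. The lowest library labelled Zhx1-KO was well above the highest control, with a log2 fold change of 0.73 ± 0.056 (SE, n = 3 per group, adjusted p = 3.21e-05). Psmb3, a structural beta subunit at chr11:97703399-97713500, followed the same pattern, at 2312, 2737 and 2587 in 46C-Ctrl and 3872, 4094 and 4218 in Zhx1-KO, with a log2 fold change of 0.68 ± 0.07 (SE, n = 3 per group, adjusted p = 0.000154). The other catalytic subunits did not pass the test. Psmb5, which cuts after hydrophobic residues, was at 2733, 2442 and 2873 in 46C-Ctrl and 2517, 2989 and 2783 in Zhx1-KO (95% interval -0.15 to 0.24), and Psmb7, which cuts after basic residues, was at 3316, 3593 and 3438 in 46C-Ctrl and 3393, 3643 and 3810.2 in Zhx1-KO (95% interval -0.068 to 0.20). In both, the groups overlapped. The structural subunits Psmb1, Psmb2 and Psmb4 had log2 fold changes of 0.15 ± 0.078, 0.0087 ± 0.059 and -0.0029 ± 0.049 (SE), none past the threshold, and Psmb1 passed without 46C-Ctrl library 2 (log2 fold change 0.24, adjusted p = 0.00632). Psmb5 shares 796 bases at 98.9% identity with the pseudogene Gm3375, listed at 567 to 601 in 46C-Ctrl and 605 to 673 in Zhx1-KO, and the sum of Psmb5 and Gm3375 overlapped between the groups.

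Measured against the 12 constitutive core genes of other chromosomes in the same library, the chromosome 11 beta subunits stood higher in every library labelled Zhx1-KO. Relative to the control mean, the log2 ratio of Psmb6 to the average of those 12 genes was 0.66, 0.74 and 0.63 in Zhx1-KO and between -0.062 and 0.045 in 46C-Ctrl. That of Psmb3 was 0.60, 0.62 and 0.63 against -0.053 to 0.037.

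The immunoproteasome genes were low in all libraries. Psmb9, at chr17:34181987-34187764, was at 40.0, 19.7 and 22.1 in 46C-Ctrl and 66.5, 70.8 and 59.9 in Zhx1-KO. No libraries overlapped between the groups, and Psmb9 rose by 1.30 ± 0.30 on the log2 scale (SE, n = 3 per group, adjusted p = 0.0082), the largest fold change of the 46 genes. Psmb9 overlaps Tap1 on the opposite strand, and the sources used here do not give whether counting used the strand. Tap1, a peptide transporter of antigen presentation, was at 535, 499 and 562 in 46C-Ctrl and 449, 519 and 467 in Zhx1-KO and did not pass the test (log2 fold change -0.15 ± 0.085, adjusted p = 0.169). Psmb8, also at the same locus on chromosome 17, was at 11.7, 19.7 and 27.4 in 46C-Ctrl and 17.1, 13.1 and 10.6 in Zhx1-KO, with overlapping groups and a 95% interval of -1.41 to 0.52. Psmb10 was at 41.0, 69.4 and 91.7 in 46C-Ctrl and 42.3, 73.8 and 81.9 in Zhx1-KO, again with overlap and an interval of -0.85 to 0.83. The thymoproteasome gene Psmb11, used in thymic epithelium, was at 0, 1.04 and 0 in 46C-Ctrl and 1.01, 2.02 and 1.76 in Zhx1-KO and was not tested. For Psmb8 and Psmb10, differences within those intervals were not detectable at this depth.

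Per kilobase of transcript, the immunoproteasome genes made up a small share of each catalytic pair. Psmb9 was 0.867, 0.407 and 0.443% of Psmb6 plus Psmb9 in 46C-Ctrl and 0.869, 0.838 and 0.748% in Zhx1-KO, so the shares overlapped although both genes rose. Psmb10 was between 1.08% and 2.31% of Psmb7 plus Psmb10, and Psmb8 between 0.209% and 0.524% of Psmb5 plus Psmb8, over all 6 libraries. The markers of blood and immune cells moved in both directions. Coro1a, an actin-binding protein of leukocytes, was at 52.7, 45.6 and 52.7 in 46C-Ctrl and 226, 203 and 236 in Zhx1-KO, with a log2 fold change of 2.12 ± 0.15 (SE, n = 3 per group, adjusted p = 2.04e-05). Laptm5, a lysosomal protein of leukocytes, was at 7.80, 9.32 and 7.38 in 46C-Ctrl and 25.2, 30.3 and 19.4 in Zhx1-KO, with a log2 fold change of 1.49 ± 0.35 (SE, n = 3 per group, adjusted p = 0.00909). Both were higher in Zhx1-KO without overlap. The embryonic globin gene Hbb-bh1 fell, at 209, 262 and 263 in 46C-Ctrl and 81.6, 53.6 and 67.8 in Zhx1-KO, with a log2 fold change of -1.85 ± 0.19 (SE, n = 3 per group, adjusted p = 0.00014). The other 4 measured markers were too low to be tested. Of these, Spi1, a transcription factor of myeloid and B cells, was at 0, 1.04 and 2.11 in 46C-Ctrl and 7.05, 6.07 and 13.2 in Zhx1-KO, and the erythroid factor Gata1 at 11.7, 12.4 and 16.9 in 46C-Ctrl and 0, 1.01 and 1.76 in Zhx1-KO. The pan-leukocyte marker Ptprc and Cd53 were at 4.03 or less in every library, and Ptprc was at 0 in all 3 libraries of Zhx1-KO. The sums over the 7 markers ran from 282 to 342 in 46C-Ctrl and 294 to 344 in Zhx1-KO, with Hbb-bh1 the most abundant in 46C-Ctrl and Coro1a in Zhx1-KO. The part of these markers in the immunoproteasome values was not tested.

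In the base of the 19S cap, the genes that passed the test fell. All of them lie outside chromosome 11 and had means above 1000. Among all genes of that kind 43.5% fell, with a median log2 fold change of -0.13, and the difference of the base from these was not tested. Of the 6 ATPases that unfold substrates, Psmc2, Psmc3 and Psmc4 fell and Psmc1, Psmc5 and Psmc6 did not pass. Psmc2 showed the largest fall of the cap, at 2506, 2539 and 2671 in 46C-Ctrl and 1980.4, 2077 and 2053 in Zhx1-KO, with every library labelled Zhx1-KO below the controls and a log2 fold change of -0.34 ± 0.049 (SE, n = 3 per group, adjusted p = 0.000851). Psmc4 was at 2893, 3004 and 2960.2 in 46C-Ctrl and 2389, 2588 and 2335 in Zhx1-KO, with a log2 fold change of -0.28 ± 0.054 (SE, n = 3 per group, adjusted p = 0.00344). Psmc3 was at 3616, 3566 and 3718 in 46C-Ctrl and 3136, 3431 and 3324 in Zhx1-KO, and its smaller fall (-0.14 ± 0.05, adjusted p = 0.0459) was lost in 11 of 17 alternative settings. Psmc5, the ATPase gene on chromosome 11 (chr11:106256154-106263120), was at 2995, 3199.9 and 3172 in 46C-Ctrl and 3168, 3591 and 3525 in Zhx1-KO. Its groups overlapped at the edge, and its log2 fold change of 0.13 ± 0.061 had a 95% interval of -0.0087 to 0.27. Psmc1 and Psmc6 had intervals of -0.12 to 0.12 and -0.12 to 0.24.

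The large scaffold subunits of the base fell as well. Psmd1 was at 3703, 3946 and 3759.5 in 46C-Ctrl and 3255, 3307 and 3407 in Zhx1-KO, with a log2 fold change of -0.19 ± 0.046 (SE, n = 3 per group, adjusted p = 0.0095), and Psmd2 at 7003, 6883 and 7061 in 46C-Ctrl and 6109, 6538 and 6356 in Zhx1-KO, with a log2 fold change of -0.14 ± 0.044 (SE, n = 3 per group, adjusted p = 0.0279). Both sets of libraries were separate, but the call of Psmd2 was lost in 8 of 17 settings, with a log2 fold change of 0.0022 after quantile normalization, and that of Psmd1 in the quantile setting alone. Psmd4, a ubiquitin receptor, was at 1362, 1436 and 1501 in 46C-Ctrl and 1535, 1536 and 1620.4 in Zhx1-KO. It was higher in all 3 libraries labelled Zhx1-KO but did not pass (0.13 ± 0.057, adjusted p = 0.0997, 95% interval -0.0062 to 0.26).

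In the lid, which carries the deubiquitinase, the 3 genes on chromosome 11 rose and the 5 others did not pass. Psmd3 (chr11:98682554-98695979) was at 4097, 3606 and 4023 in 46C-Ctrl and 4981, 5093 and 4989 in Zhx1-KO, with a log2 fold change of 0.36 ± 0.057 (SE, n = 3 per group, adjusted p = 0.00127). Psmd11 (chr11:80428615-80473248) was at 1626, 1359 and 1661 in 46C-Ctrl and 2066, 2035 and 1974 in Zhx1-KO, with a log2 fold change of 0.39 ± 0.081 (SE, n = 3 per group, adjusted p = 0.00472). Psmd12 (chr11:107479484-107504362) was at 2142, 2501 and 2251 in 46C-Ctrl and 2904, 3044 and 3076 in Zhx1-KO, with a log2 fold change of 0.39 ± 0.066 (SE, n = 3 per group, adjusted p = 0.00174). None of the 3 overlapped between the groups, and 46C-Ctrl library 2 was the lowest control for Psmd3 and Psmd11 and the highest for Psmd12. Psmd14, the deubiquitinase itself, was at 1628, 1677 and 1559 in 46C-Ctrl and 1587, 1624 and 1579 in Zhx1-KO (95% interval -0.14 to 0.097). Psmd6, Psmd7, Psmd8 and Psmd13 had log2 fold changes from -0.12 to 0.087, and their groups overlapped. Against the average of the 13 cap subunits of other chromosomes in the same library, the log2 ratios of Psmd3, Psmd11, Psmd12 and Psmc5 were higher in Zhx1-KO than in 46C-Ctrl by 0.44, 0.47, 0.47 and 0.21.

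Among the chaperones that assemble the base, Psmd10 (gankyrin), on the X chromosome, rose. It was at 273, 302 and 295 in 46C-Ctrl and 413, 401 and 462 in Zhx1-KO, without overlap, and had a log2 fold change of 0.55 ± 0.091 (SE, n = 3 per group, adjusted p = 0.00167). Psmd5 and Psmd9 were at 1056 ± 105 and 467 ± 22.5 in 46C-Ctrl and 1011 ± 95.5 and 471 ± 20.7 in Zhx1-KO (SD, n = 3), with overlapping groups.

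The activators of the core moved in opposite directions, and all 5 activator and inhibitor genes passed the test. Psme1 and Psme2, whose products form the PA28 alpha and beta ring of the cytoplasm, both fell. Psme1 was at 1239.5, 1160.5 and 1316 in 46C-Ctrl and 847, 995 and 908 in Zhx1-KO, with a log2 fold change of -0.44 ± 0.079 (SE, n = 3 per group, adjusted p = 0.00257). Psme2 was at 977, 1053 and 1008 in 46C-Ctrl and 738, 799 and 775 in Zhx1-KO, with a log2 fold change of -0.39 ± 0.062 (SE, n = 3 per group, adjusted p = 0.00123). By contrast Psme3, the nuclear PA28 gamma, rose, at 2809, 2975 and 2927 in 46C-Ctrl and 3782, 3630.4 and 3631 in Zhx1-KO (chr11:101316213-101323537), with a log2 fold change of 0.34 ± 0.046 (SE, n = 3 per group, adjusted p = 0.000571). Psme4, the PA200 activator (chr11:30771726-30880361), was at 3831, 4118 and 4003 in 46C-Ctrl and 5193, 4700.3 and 5012 in Zhx1-KO, with a log2 fold change of 0.32 ± 0.054 (SE, n = 3 per group, adjusted p = 0.00183). Within single libraries, the log2 ratio of Psme3 to Psme1 was above the control mean by 0.93, 0.64 and 0.77 in Zhx1-KO, and within -0.077 to 0.13 of it in 46C-Ctrl. The inhibitor Psmf1 (PI31) was at 485, 429.6 and 465 in 46C-Ctrl and 413, 368 and 347 in Zhx1-KO. It fell by 0.29 on the log2 scale (adjusted p = 0.0328), a call lost in 8 of 17 settings. Psme3 and Psme4 lie on chromosome 11 and the 3 genes that fell do not, so role and chromosome cannot be told apart in this group. Reads of Psme2 may be shared with Psme2b, which matches it over 794 bases at 99.4% identity and was not analysed here.

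Of the 4 chaperones that assemble the core, 3 rose, all from chromosomes other than 11. Psmg4 was at 238, 205 and 189.8 in 46C-Ctrl and 282, 329.7 and 325 in Zhx1-KO, with a log2 fold change of 0.57 ± 0.12 (SE, n = 3 per group, adjusted p = 0.00549). Psmg1 and Psmg2, which act as a dimer on the alpha ring, had log2 fold changes of 0.29 ± 0.071 (adjusted p = 0.0109) and 0.29 ± 0.07 (adjusted p = 0.0103), and the libraries of both were separate. Psmg3, the partner of Psmg4, was at 302, 299 and 292 in 46C-Ctrl and 299, 269 and 283 in Zhx1-KO and did not pass (-0.072 ± 0.086, 95% interval -0.27 to 0.13). Pomp, the maturation factor of the core named outside the Psm symbols, was at 1689, 1759.9 and 1552 in 46C-Ctrl and 1342, 1524 and 1537 in Zhx1-KO (log2 fold change -0.18 ± 0.075, adjusted p = 0.072).

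Reads could be shared with copies or overlapping genes in further cases. Psmb3 matches the pseudogenes AC114990.1, Gm4950 and Gm5356 at 97.1%, 97.1% and 96.3% identity, none of which was analysed here. The near-identical pseudogenes Gm14048 of Psmd11, Gm5422 of Psmd2, Gm6542 of Psma4, Gm8394 of Psma5 and Gm9575 of Psmc1 were listed at 7.25 normalised counts or less in every library. Psmg3 overlaps Gm26938 on its own strand, and exons of Psme1, Psmc3, Psmb7, Psma4, Psma5, Psmd13 and Psmb8 overlap a gene on the other strand.

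**Figure D2:**
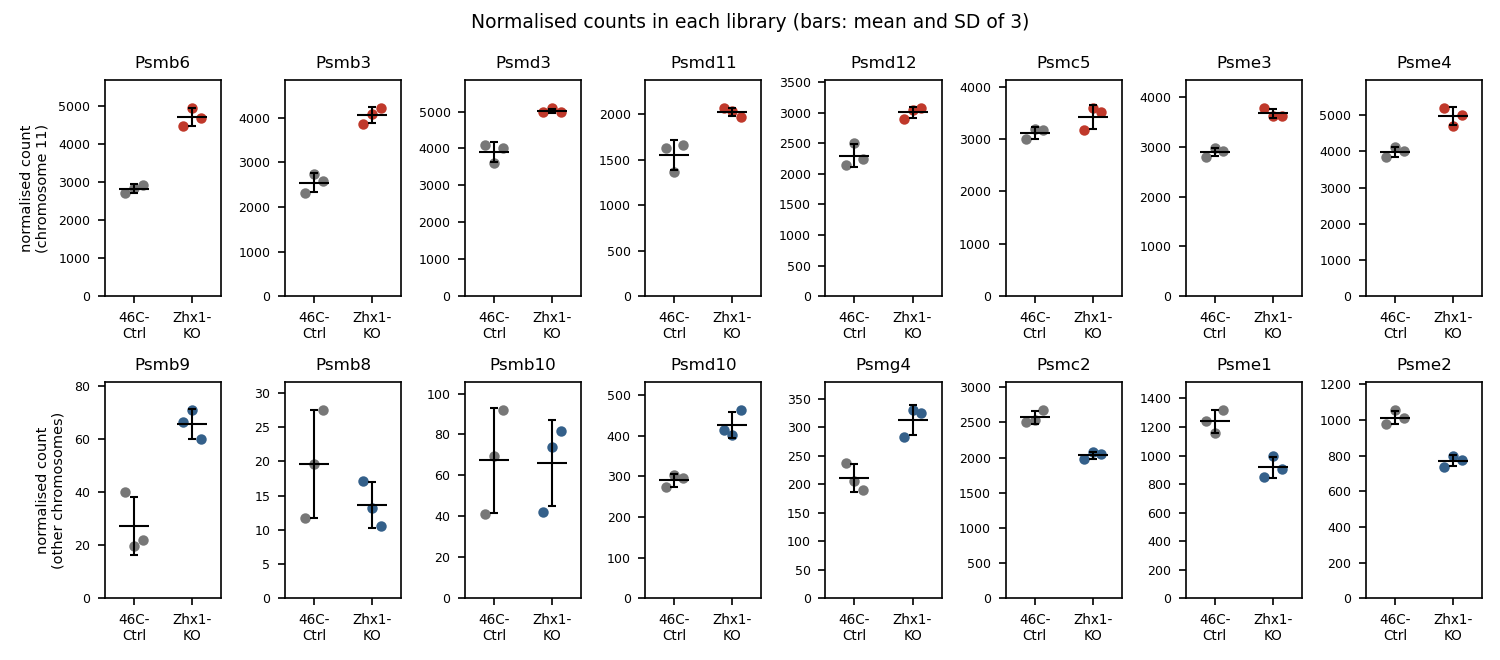
Normalised counts (y axes, each from 0) in the 6 libraries for the 8 proteasome genes of chromosome 11 (top row) and 8 of other chromosomes (bottom row), with the mean and SD of 3 as bars. In the top row every gene but Psmc5 has all 3 libraries labelled Zhx1-KO above the controls, while Psmc2, Psme1 and Psme2 lie below them.

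The subunits on chromosome 11 were higher in the Zhx1-KO libraries in the core, the cap and the activators alike. Of the 8 on chromosome 11, 7 rose and Psmc5 did not pass, and all 8 fold changes were above 0. Of the 38 tested on other chromosomes, 6 rose and 8 fell. The median log2 fold changes were 0.38 and 0.0041. Library by library, the median difference from the control mean was 0.38, 0.39 and 0.35 in Zhx1-KO for the 8 genes, and -0.026, 0.015 and 0.057 for the 38. In 46C-Ctrl both medians stayed between -0.058 and 0.036. Without 46C-Ctrl library 2 the medians were 0.35 and 0.020, and again 7 of the 8 rose.

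Of all 1193 genes tested on chromosome 11, 57.1% rose, with a median log2 fold change of 0.42, which was above the 0.38 of the 8. Each of the 8 had a mean normalised count of at least 1000. Of the 371 chromosome 11 genes at that level, 66.6% rose, with a median of 0.33, below that of the 8. On the other chromosomes, 23.0% of genes rose and 27.9% fell, with a median of -0.022, and of the 38 proteasome genes 15.8% rose and 21.1% fell. Among genes of other chromosomes with a mean normalised count of at least 1000, 19.2% rose and 43.5% fell, with a median of -0.13. The median of the 38, not all of which are at that level, was 0.0041. The differences between these shares and medians were not tested. Psmb6 and Psmb3 stood in the upper part of chromosome 11, where 29.9% and 34% of genes had an equal or larger log2 fold change. For the other 6 that share was between 52.4% for Psmd11 and 70.8% for Psmc5.

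**Figure D3:**
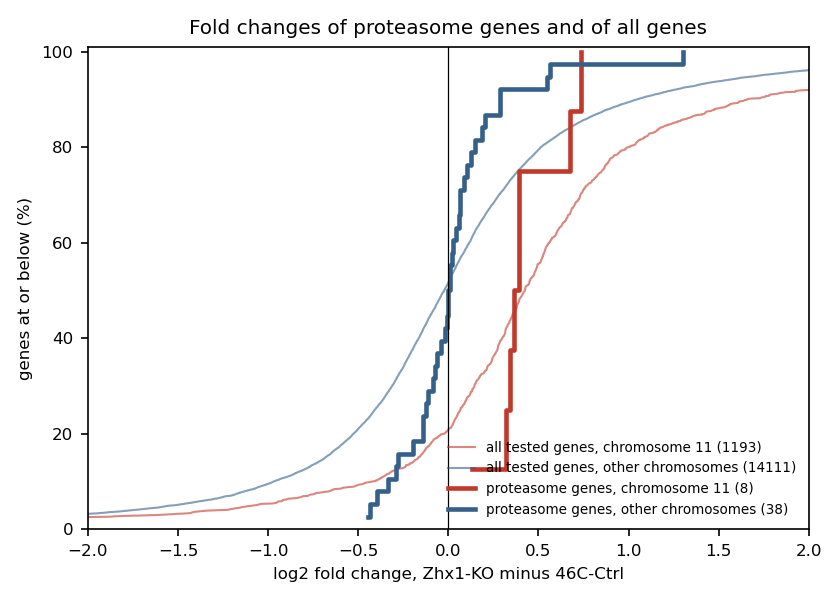
Percent of genes (y axis) at or below each log2 fold change (x axis, shown from -2 to 2), for all tested genes of chromosome 11 and of the other chromosomes (thin lines) and for the 8 and 38 proteasome genes (thick steps). The 8 start to the right of 0 and have a median of 0.38, and the 38 rise steeply around 0.

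Each proteasome gene was also set beside the tested genes within 1 Mb of it. Around all 8 on chromosome 11 the median of the neighbours was above 0, from 0.29 around Psmb6 (69 genes) to 0.60 around Psme3 (70 genes), and 3 of the 8, Psmb6, Psmb3 and Psmd3, exceeded the median of their neighbours. Psmc5 was below the median of its 27 neighbours, 0.42. Psmd10 on the X chromosome also lay among genes with a positive median (0.60, 9 genes). Around the 8 genes that fell, the neighbour medians ran from -0.21 for Psmd1 to 0.022 for Psmc2, and were 0.012 for Psmc4 and -0.0025 for Psme1 and Psme2. Psmb9 and Psmg4 rose among neighbours with medians of 0.087 and -0.0091. Of the 82 neighbours of Psmb9, 20 rose and 24 fell, and nearby Tap2 rose by 1.09 ± 0.20 on the log2 scale. For the other rises outside chromosome 11, the medians were -0.25 around Psma7, 0.028 around Psmg2 and 0.31 around Psmg1. The last was above the 0.29 of Psmg1 itself.

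**Figure D4:**
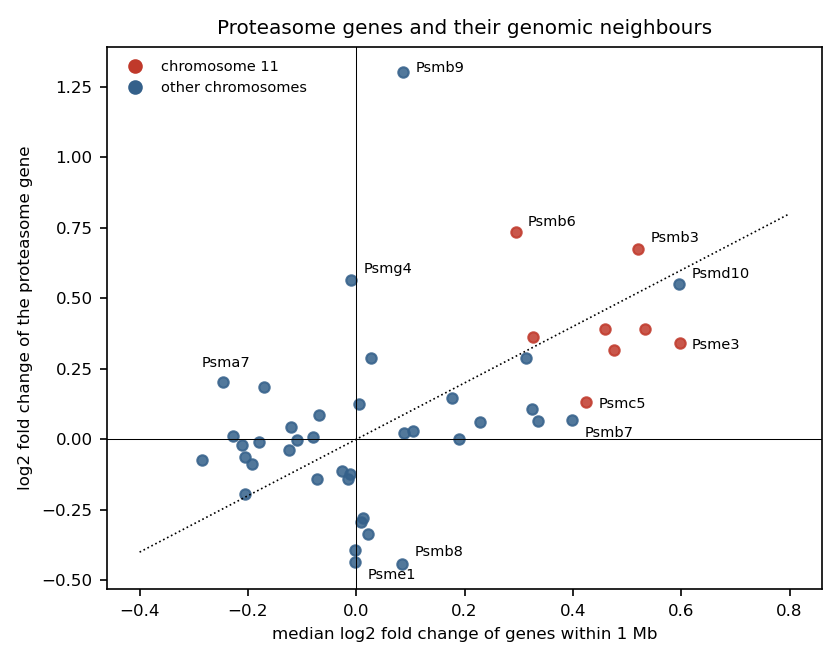
Log2 fold change of each of the 46 proteasome genes (y axis) against the median of the tested genes within 1 Mb (x axis), with equality as a dotted line. All 8 red points of chromosome 11 have neighbour medians of 0.29 or more, and Psmb9 and Psmg4 lie far above medians near 0.

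Levels between genes were compared per kilobase of the principal transcript. The 14 constitutive core genes had a median of 2374 normalised counts per kb in 46C-Ctrl and 2288 in Zhx1-KO, and the 17 cap subunits 1441 and 1509. In 46C-Ctrl the core ran from 328 ± 25.3 for Psma3 to 3541 ± 149 for Psmb6 (SD, n = 3), and in Zhx1-KO Psmb6 reached 5894 ± 291 and Psmb3 5302 ± 229. In 46C-Ctrl Psmb6, Psma7 at 3356 ± 181 and Psmb3 at 3323 ± 281 lay within their spread of each other, while in Zhx1-KO Psmb6 and Psmb3 stood above Psma7 at 3865 ± 189. Psma2 stood next to Psma3 by transcript length, at 692 ± 47.7, and both have long annotated 3′ ends, with transcripts of 2911 and 2846 bases. Per kilobase of coding sequence, the core ran from 1222 for Psma3, part of whose reads may lie on Gm13835, to 4635 for Psmb1 in 46C-Ctrl, and Psma2 was at 2870.3. In the cap, Psmd11 was the lowest by transcript length in both groups, at 544 ± 57.9 and 711 ± 16.4. Among chaperones and the inhibitor, Psmf1 was at 121 ± 7.33, Psmd9 at 179.9 ± 8.67 and Psmd10 at 203 ± 10.7 per kb in 46C-Ctrl. The immunoproteasome genes were lower again, from 12.0 ± 4.83 for Psmb8 to 51.4 ± 19.4 for Psmb10. Together the 47 genes took 0.654% to 0.697% of the summed values in 46C-Ctrl and 0.727% to 0.754% in Zhx1-KO.

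**Figure D5:**
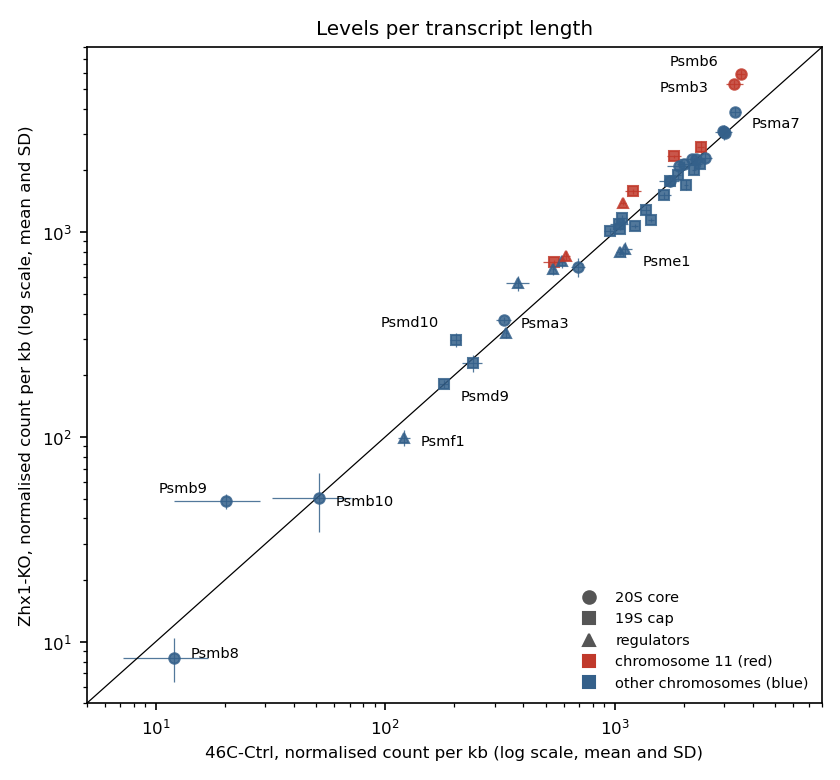
Normalised counts per kb of principal transcript in 46C-Ctrl (x axis) and Zhx1-KO (y axis), both on log scales, as mean and SD of 3 libraries, for 46 proteasome genes (Psmb11 is left out). Points on the line are equal in both groups, the red points of chromosome 11 lie above it, and the immunoproteasome genes lie at the lower left.

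Of 12 further subunits and partners outside the Psm symbols, 2 rose and 5 fell. Over all genes tested, 25.6% rose and 26.4% fell. Zfand2a, a stress-induced proteasome adaptor, was at 169, 182 and 177 in 46C-Ctrl and 88.7, 104 and 95.9 in Zhx1-KO, with a log2 fold change of -0.87 ± 0.13 (SE, n = 3 per group, adjusted p = 0.000915). Zfand5 had a log2 fold change of -0.50 ± 0.11 (adjusted p = 0.00594). Adrm1, a ubiquitin receptor of the cap, was at 1922, 1832 and 2030.0 in 46C-Ctrl and 1368, 1666 and 1507 in Zhx1-KO, with a log2 fold change of -0.35 ± 0.08 (SE, n = 3 per group, adjusted p = 0.00754), whereas Ecpas, a proteasome adaptor, rose by 0.22 ± 0.06 on the log2 scale (adjusted p = 0.0162). Of 11 shuttle factors and genes of the Vcp segregase, which delivers unfolded substrates, 6 fell and 1 rose. Among all genes of other chromosomes than 11 with a mean of at least 1000, 43.5% fell and 19.2% rose. The difference of the lists from these shares was not tested. The smallest adjusted p-values were those of Ddi2 (-0.71 ± 0.074, adjusted p = 0.000167), the protease that activates Nfe2l1, and of the shuttle factors Ubqln2 (-0.54 ± 0.083, adjusted p = 0.0011) and Ubqln4 (-0.35 ± 0.059, adjusted p = 0.00165), followed by Ufd1 (-0.36 ± 0.092, adjusted p = 0.0123). All 4 were lower in Zhx1-KO without overlap. Without 46C-Ctrl library 2, 1 of the 12 partners rose and 5 fell, and 6 of the 11 shuttle and Vcp genes fell while Faf1, the 1 that had risen, no longer passed.

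Rps27a and Ubb, which encode ubiquitin and lie on chromosome 11, rose, with log2 fold changes of 0.76 ± 0.12 (adjusted p = 0.00147) and 0.20 ± 0.068 (adjusted p = 0.0378). Uba6, an E1 enzyme that activates ubiquitin, fell, with a log2 fold change of -0.22 ± 0.068 (adjusted p = 0.0297). With each of the 6 libraries left out in turn, Rps27a passed in 6 of 6 limma fits, Ubb in 2 and Uba6 in 1, and without 46C-Ctrl library 2 the adjusted p was 0.0808 for Ubb and 0.0710 for Uba6.

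Of 11 factors known to bind or regulate proteasome promoters, 2 rose and 6 fell. The shares over all genes tested were 25.6% and 26.4%. Foxo4 was at 3483, 3252 and 3452 in 46C-Ctrl and 1448, 1546 and 1398 in Zhx1-KO, with a log2 fold change of -1.21 ± 0.057 (SE, n = 3 per group, adjusted p = 3.38e-06). The small Maf proteins pair with Nfe2l factors on TGACNNNGC, and Maff was at 736, 739 and 803 in 46C-Ctrl and 200.6, 144 and 165 in Zhx1-KO, with a log2 fold change of -2.17 ± 0.13 (SE, n = 3 per group, adjusted p = 1.00e-05). Mafk and Nfe2l2 (Nrf2) had log2 fold changes of -1.31 ± 0.11 (adjusted p = 5.45e-05) and -0.77 ± 0.075 (adjusted p = 0.000115). The genes that rose were Nfe2l3, with a log2 fold change of 2.26 ± 0.26, and Nfe2l1 (Nrf1), with 0.44 ± 0.085 (adjusted p = 0.000258 and 0.0034), which were named after their values were seen. Nfe2l1 lies on chromosome 11.

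Beside the rise of Psmb9, the interferon and antigen presentation genes moved in both directions. Of 10 antigen presentation genes tested, 3 rose and 4 fell, or 4 and 4 without 46C-Ctrl library 2. Of all genes tested, 25.6% rose and 26.4% fell. H2-K1 and H2-D1, the class I heavy chains, rose by 1.29 ± 0.078 and 1.02 ± 0.11 on the log2 scale (adjusted p = 1.11e-05 and 0.0002), while the chaperone Calr and the disulfide isomerase Pdia3 of peptide loading had log2 fold changes of -1.30 ± 0.047 and -0.98 ± 0.044 (adjusted p = 1.15e-06 and 2.67e-06). Of 8 interferon response genes tested, 2 rose and 5 fell. Irf1, a factor that drives Psmb9 in interferon-treated cells, was at 405, 413 and 485 in 46C-Ctrl and 165, 203 and 146 in Zhx1-KO, with a log2 fold change of -1.34 ± 0.14 (SE, n = 3 per group, adjusted p = 0.00017), and Gbp2, Irgm1 and Ifitm3 had log2 fold changes of -3.16 ± 0.22, -2.41 ± 0.24 and -0.93 ± 0.10 (adjusted p = 2.32e-05, 0.00013 and 0.000209).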

How the data were processed

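Per the labels and methods, cutadapt 1.18 was used by the authors for trimming and HISAT2 2.1.0 for mapping to GRCm38 (GENCODE M19). The deposited signal values are gene counts divided by DESeq2 size factors, called normalised counts here. Which program counted reads, and whether by strand, is not given in the sources used. Every value was a whole multiple of its library's step (tolerance 0.01), which gave the depth. Libraries were grouped by label. Log2(value + 1) of genes with a mean of at least 10 was fitted with limma 3.58.1 (trend, R 4.3.3) over all 6 libraries, with Benjamini-Hochberg adjustment over all genes tested and 95% intervals. The steps were tested on simulated data. edgeR 4.0.16 and DESeq2 1.42.0 ran on the recovered reads as alternatives. For 2 libraries labelled Zhx1-KO the step was within 0.02 of 1, so the recovery there rests on the multiples alone. Positions, transcript lengths and copies (at least 95% identity over 200 bases) came from GENCODE M21. Members and lists were chosen with earlier results of these data known, and the 1 Mb neighbours were added after the values were seen. Named in full were the largest rise and fall of each role, the genes of chromosome 11, the immunoproteasome genes and up to 4 partners per list with the smallest adjusted p. The marker lists for CP, cardiomyocyte, endothelial, blood, neural, endoderm, pluripotency and fibroblast genes were read as counts. Of the lists not given above, 4 of 6 cardiomyocyte markers rose and 1 fell, and 5 of 8 fibroblast markers rose and 2 fell.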

Additional observations from a re-analysis of the deposited data

How the results depend on the processing

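Of the 21 proteasome genes that passed the test, 16 kept call and direction in all 17 alternatives, and of the 25 that did not, 7 passed in at least 1. The 5 that lost the call somewhere were Psmd1, Psmd2, Psmc3, Psmf1 and Psma7. Pseudocounts of 0.5 and 5, the filters, TMM rescaling, edgeR and DESeq2 left all counts of proteasome genes within 1.5 times. Quantile normalization gave 20 higher and 4 lower in place of 13 and 8, with 12 and 4 on other chromosomes, medians of 0.48 on chromosome 11 and 0.096 elsewhere, and Psmd2 at a log2 fold change of 0.0022 (adjusted p = 0.965). Scaling on genes outside chromosome 11 gave 5 lower, also 5 on other chromosomes, and a chromosome 11 median of 0.41. limma without the trend gave 5 lower, all 5 on other chromosomes. The cause was not tested. Leaving out 1 library at a time, the counts ran from 12 to 15 higher and 5 to 8 lower, on other chromosomes from 5 to 8 both higher and lower, and on chromosome 11 from 7 to 8 higher with none lower. The medians ran from 0.35 to 0.38 on chromosome 11 and from -0.026 to 0.035 elsewhere. Counts of 5 lower arose without 46C-Ctrl library 1 or 3 or Zhx1-KO library 3. Zhx1 ran from -0.70 without 46C-Ctrl library 2 (adjusted p = 0.0113) to -0.028. Replicate numbers are shared between the groups, but same-numbered libraries did not deviate together (r = 0.0042, -0.069 and 0.00059), and with the number as a replicate block 13 rose and 6 fell, with the calls of Psmd2 and Psmc3 lost. Depth limits Psmb8, Psmb9, Psmb10 and Psmb11, each with fewer than 100 reads in each library.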
